A study of Mus musculus with 10 samples.

Results

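The expression of 10 genes of the netrin system was followed in the embryonic cortical hem (CH), namely the 4 netrin receptors *Unc5a*, *Unc5b*, *Unc5c* and *Unc5d*, the receptors *Dcc*, *Neo1* and *Dscam*, and the ligands *Ntn1*, *Ntn3* and *Ntn4*. They are 10 of the 52227 genes in the count table, and all 10 were among the 21664 genes tested. *Unc5c* was picked because its read counts differed between the genotypes of this same data set, and the other 9 genes were picked because they belong to its receptor and ligand family. The difference in *Unc5c* is therefore given as a description and without a test.

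Libraries came from CH dissected by laser at e13.5, with 1 library of total RNA for each of 5 wild-type and 5 *Lmx1a-/-* embryos. The mutants were homozygous for *drJ*, a null allele of the LIM homeobox transcription factor gene *Lmx1a*, and both genotypes were on a mixed background of C57Bl6, FVB and CD1. The CH is a signaling center at the dorsal midline of the telencephalon that also gives rise to Cajal-Retzius (CR) cells. Tissue from many sections of an embryo was combined, and the borders of the CH had been read from neighboring sections stained for the Lmx1a protein.

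Netrins are secreted, laminin-related proteins that guide axons and migrating neurons. Receptors of the DCC type, DCC and neogenin, mediate attraction toward netrin-1, whereas UNC5 receptors, alone or together with DCC, mediate repulsion. UNC5 receptors and DCC are also known as dependence receptors, which can promote cell death when no ligand is bound, and neogenin is also the receptor of repulsive guidance molecules.

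Between 19145952 and 36462780 counts were assigned to genes per library, and mitochondrial genes took 20.6% to 27.6% of them. Levels are given in normalized CPM, the count of a gene relative to the TMM-scaled total of its library (TMM, trimmed mean of M values), as mean ± SD of 5 embryos per genotype. The quasi-likelihood test of edgeR was fitted over all 21664 genes to compare the genotypes, with a false discovery rate (FDR) under 0.1 as the threshold. All 10 genes of a CH marker list were detected in every library, with summed levels from 1264 to 2217 CPM in wild-type and from 1485 to 1769 CPM in *Lmx1a-/-* embryos. Wild-type embryo 3 stood apart from the other wild-type embryos, with the lowest sum of CH markers and the highest sums of cortical neuroepithelium markers (1244 CPM) and meningeal and mesenchymal markers (948 CPM). Transcripts of *Lmx1a* itself were present at 71.2 ± 18.2 CPM in wild-type embryos and at 114 ± 21 CPM in mutants, and counts do not separate *drJ* transcripts from wild-type ones. Y-linked transcripts were found in 1 wild-type library (embryo 1) and in all 5 *Lmx1a-/-* libraries, so that genotype and the sex of the embryos cannot be fully told apart.

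*Unc5c*, which encodes a repulsive netrin receptor, lies on the plus strand of chromosome 3 of GRCm38 (141465216 to 141834924) and has 18 exon blocks in the GENCODE annotation. Promoter windows from RefSeq, which cover 250 bases before and 50 bases after the start of a gene, were at hand for 7 of the 10 genes (*Unc5a*, *Unc5b*, *Unc5c*, *Neo1*, *Dscam*, *Ntn3* and *Ntn4*). Because Lmx1a is a homeodomain protein, these windows were searched on both strands for TAAT, the core of many homeodomain binding sites (ATTA on the other strand). The windows of *Unc5c* and of 2 other UNC5 genes are shown so that the receptor that differed can be compared with its relatives, with every match in capitals. They read 5′ to 3′ on the strand of the gene, in GRCm38.p6, and lie at chr3:141465314-141465613 on the plus strand for *Unc5c*, at chr13:54949161-54949460 on the plus strand for *Unc5a* and at chr10:60831532-60831831 on the minus strand for *Unc5b*.
Unc5c: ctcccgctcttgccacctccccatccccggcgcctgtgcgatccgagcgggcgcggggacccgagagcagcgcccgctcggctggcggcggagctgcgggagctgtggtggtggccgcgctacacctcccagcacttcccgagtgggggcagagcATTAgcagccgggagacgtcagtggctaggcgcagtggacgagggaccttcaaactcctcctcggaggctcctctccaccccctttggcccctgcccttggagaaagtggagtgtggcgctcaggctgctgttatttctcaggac
Unc5a: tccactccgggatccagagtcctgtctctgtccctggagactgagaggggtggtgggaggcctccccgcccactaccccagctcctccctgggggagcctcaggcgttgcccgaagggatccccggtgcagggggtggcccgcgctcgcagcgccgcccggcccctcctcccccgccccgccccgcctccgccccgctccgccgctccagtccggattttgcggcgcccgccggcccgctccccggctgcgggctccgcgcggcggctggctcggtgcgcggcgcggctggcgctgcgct
Unc5b: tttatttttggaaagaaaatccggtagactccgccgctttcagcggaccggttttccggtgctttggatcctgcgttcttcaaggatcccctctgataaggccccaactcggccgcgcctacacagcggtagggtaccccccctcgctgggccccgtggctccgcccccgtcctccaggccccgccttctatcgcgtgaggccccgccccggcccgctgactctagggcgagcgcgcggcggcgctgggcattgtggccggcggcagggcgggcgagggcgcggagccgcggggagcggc

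The *Unc5c* window held 1 match, which began at position -95 relative to the RefSeq start site, and the windows of *Unc5a* and *Unc5b* held none. Among the 7 windows, 2 held a match, those of *Unc5c* and *Dscam*, and 58.0% of all 32851 promoter windows of the same length held at least 1. The palindrome TAATTA, which contains the shorter motif on either strand, was in 0 of the 7 windows and in 5.3% of all windows. All 7 windows were rich in G and C, from 68.3% in *Unc5c* to 82.7% in *Neo1*, compared with a median of 52.7% over all windows. GENCODE places the earliest start of *Unc5c* upstream of this window, and a match of 4 letters does not show that a protein binds there.

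*Unc5c* was lower in every *Lmx1a-/-* embryo than in any wild-type embryo. Its level was 148, 146, 79.7, 134 and 186 CPM in wild-type embryos 1 to 5, against 29.5, 43.9, 33.1, 35.6 and 46.4 CPM in *Lmx1a-/-* embryos 1 to 5. The means were 139 ± 38.4 CPM and 37.7 ± 7.20 CPM, so that *Lmx1a-/-* CH held 27.1% of the wild-type level, a log2 fold change of -1.88 (SE 0.19). These are the values for which *Unc5c* was picked. The lowest wild-type level was that of embryo 3, and without this embryo the log2 fold change was -2.03. Wild-type embryo 1, the wild-type embryo with Y-linked transcripts, had 148 CPM, within the range of the other wild-type embryos. When only libraries with Y-linked transcripts were compared (1 wild-type and 5 *Lmx1a-/-*), the log2 fold change was -1.98. That comparison rests on 1 wild-type library and on the values for which *Unc5c* was picked, and the part of sex was not tested. In RNA from whole tissue, fewer cells that express a gene and less RNA of the gene per cell cannot be told apart.

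**Figure D1:**
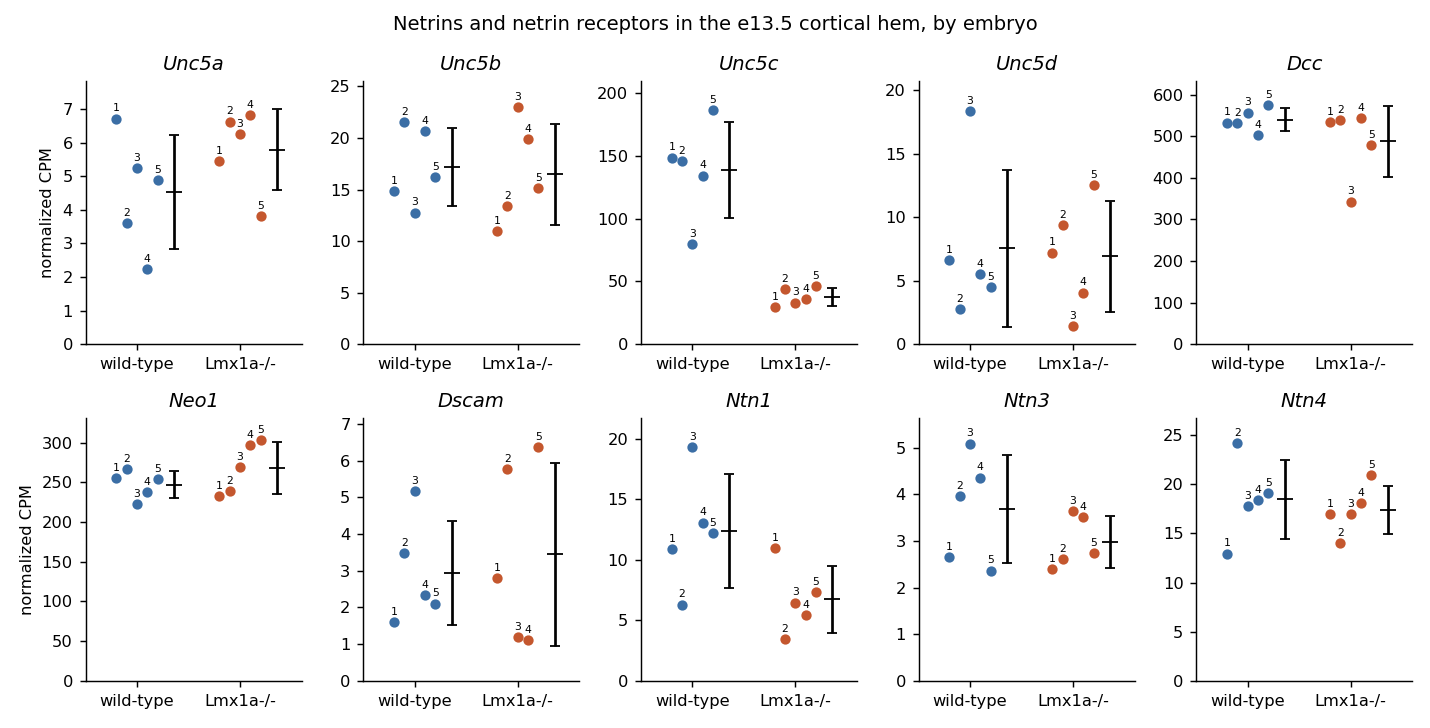
Normalized CPM of the 10 genes by embryo, with a linear axis of its own for each gene that starts at 0. Points are embryos numbered 1 to 5, and black bars are mean ± SD of 5 embryos. For *Unc5c* the wild-type points (79.7 to 186 CPM) lie above all *Lmx1a-/-* points (29.5 to 46.4 CPM), and for each of the other 9 genes the genotypes overlap.

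Levels of marker genes of several cell types also differed between the libraries, and their part in the *Unc5c* difference was not tested. Markers of CR cells summed to 493 to 762 CPM in wild-type and 261 to 441 CPM in *Lmx1a-/-* CH. At the threshold, 5 of 9 tested markers were lower and 1 was higher. Of all genes tested, 2.29% were lower and 1.72% were higher. Markers of cortical neuroepithelium summed to 538 to 1244 CPM and 1039 to 1469 CPM, with 3 of 10 higher. Choroid plexus markers ranged from 87.8 to 432 CPM in wild-type and from 120 to 187 CPM in mutant embryos, with wild-type embryos 3 and 4 within or below the mutant range, and 2 of 9 tested markers were lower.

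Of the CH markers, 5 of 10 were lower and 1, *Lmx1a*, was higher in the mutants, compared with 2.29% and 1.72% of all genes tested. Summed neuron markers covered nearly the same range in both genotypes, 469 to 892 CPM and 509 to 892 CPM, and 0 of 10 passed. Endothelial markers summed to 30.5 to 105 CPM in wild-type and 25.8 to 65.5 CPM in *Lmx1a-/-* CH, and 0 of 10 passed. The sum of red blood cell markers was above the mutant range in every wild-type library, at 642 to 1489 CPM against 268 to 581 CPM. Of these markers, 0 of 9 tested passed. Meningeal and mesenchymal markers ranged from 345 to 948 CPM and from 261 to 529 CPM, with 3 of 10 lower. At most 2 markers of a list were at 0 in a library, and none of the defining CR cell markers *Reln*, *Trp73* and *Lhx1* was. The log2 fold change of *Unc5c* was also fitted together with the mean log2 level of a marker list. It was -1.74 with CR cell markers, -1.45 with choroid plexus markers, -1.55 with cortical neuroepithelium markers and -1.77 with neuron markers. The levels of CR cell, choroid plexus and cortical neuroepithelium markers followed the genotype (r = -0.773, -0.738 and 0.736, in that order). The level of neuron markers did so more weakly (r = 0.426). The fits with CR cell, choroid plexus and cortical neuroepithelium markers therefore cannot separate cell make-up from genotype. All of these fits, that with neuron markers included, use the values for which *Unc5c* was picked, and nothing is read from them.

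**Figure D2:**
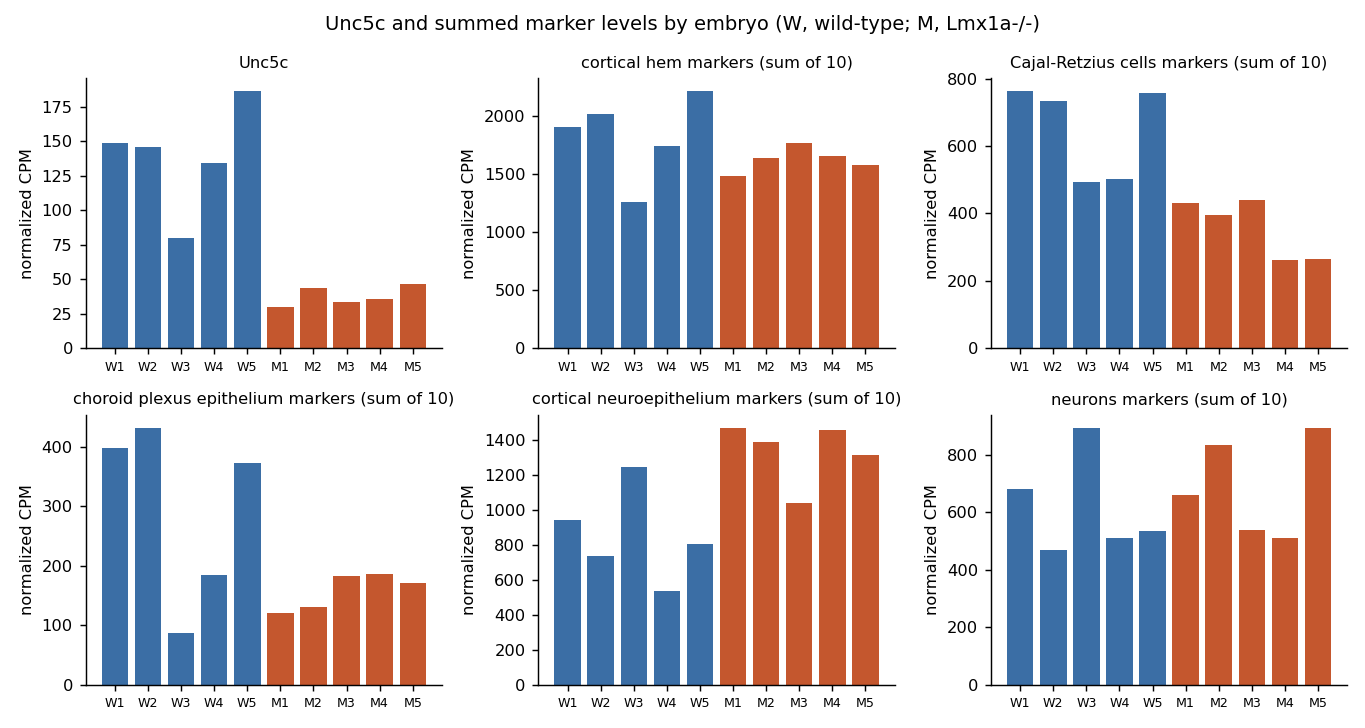
Normalized CPM of *Unc5c* and summed normalized CPM of 5 marker lists, as 1 bar per embryo (W1 to W5, wild-type; M1 to M5, *Lmx1a-/-*). W3 has the lowest *Unc5c* bar of the wild-type embryos (79.7 CPM) and also the lowest bar for CH markers (1264 CPM) and choroid plexus markers (87.8 CPM).

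The profile of *Unc5c* over the 10 libraries was compared with those of 16716 other genes with a mean of at least 1 CPM. The measure was the root mean square difference between log2 profiles, each centered on its own mean, in which 0 would be an identical profile and the median gene stood at 1.03. The 5 nearest genes were *Rdh10* (0.309), *Lmo2* (0.331), *Asb4* (0.331), *4931422A03Rik* (0.341) and *Sertm1* (0.348). *Rdh10* encodes a retinol dehydrogenase of retinoic acid synthesis, *Lmo2* a LIM-only transcriptional cofactor and *Asb4* a subunit of ubiquitin ligases. Since *Unc5c* was picked for its genotype difference, genes near it share that difference by construction. The mean of *Rdh10* was 25.5 ± 6.98 CPM in wild-type and 9.14 ± 1.03 CPM in mutant embryos, *Lmo2* had 138 ± 40.5 and 26.7 ± 4.86 CPM, and *Sertm1* had 105 ± 36.3 and 21.7 ± 5.63 CPM. In all 5 genes wild-type embryo 3 was the lowest wild-type embryo, as in *Unc5c*. The choice by profile over all 10 libraries also favors this by construction.

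In normalized CPM, which do not account for gene length, the other UNC5 receptors were at lower levels than *Unc5c*, and none of them passed the threshold. *Unc5a* (chromosome 13, 54949411 to 55006018) had 6.72, 3.61, 5.24, 2.23 and 4.88 CPM in wild-type embryos 1 to 5 and 5.45, 6.63, 6.27, 6.81 and 3.83 CPM in *Lmx1a-/-* embryos 1 to 5. The ranges overlapped, with only *Lmx1a-/-* embryo 4 above all wild-type embryos. Its log2 fold change was 0.35 (SE 0.28, 95% interval -0.25 to 0.94, edgeR FDR = 0.579), and wild-type embryo 4 rested on 43 counts.

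*Unc5b*, which is also known as a receptor of endothelial cells, lies on chromosome 10 (60762593 to 60831581). Its level was 14.9, 21.6, 12.8, 20.6 and 16.2 CPM in wild-type embryos 1 to 5 and 10.97, 13.4, 23.0, 19.9 and 15.2 CPM in *Lmx1a-/-* embryos 1 to 5. One mutant embryo was below and 1 was above all wild-type embryos. For *Unc5b* the log2 fold change was -0.06 (SE 0.21, 95% interval -0.51 to 0.39, edgeR FDR = 0.926).

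*Unc5d*, a receptor known from migrating cortical neurons, lies on chromosome 8 (28646717 to 29219636) and varied most among the wild-type embryos. It had 6.64, 2.75, 18.4, 5.55 and 4.51 CPM in wild-type embryos 1 to 5 and 7.22, 9.40, 1.40, 4.07 and 12.5 CPM in *Lmx1a-/-* embryos 1 to 5. The coefficient of variation was 82.0% in wild-type and 63.1% in *Lmx1a-/-* embryos, compared with 27.6% and 19.1% for *Unc5c*. The highest values were those of wild-type embryo 3 and *Lmx1a-/-* embryo 5, which also had the highest sums of neuron markers of their genotype, 892 CPM each. *Unc5d* had a log2 fold change of -0.14 (SE 0.55, 95% interval -1.31 to 1.03, edgeR FDR = 0.933), and without wild-type embryo 3 it was 0.50.

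Because the 4 genes differ in length, their levels were also set per kilobase of exon (RPKM) and expressed as shares of the summed UNC5 level. In wild-type CH, *Unc5c* made up 59.9% ± 9.46 of this sum, *Unc5b* 23.2% ± 4.96, *Unc5a* 9.27% ± 3.75 and *Unc5d* 7.61% ± 7.64 (SD, n = 5 embryos). In *Lmx1a-/-* CH the share of *Unc5c* was 29.2% ± 4.08, that of *Unc5b* 38.7% ± 9.27, that of *Unc5a* 20.8% ± 4.56 and that of *Unc5d* 11.3% ± 6.90. The share of *Unc5c* ranged from 44.1% to 69.6% in wild-type and from 24.5% to 34.1% in *Lmx1a-/-* embryos and did not overlap, which follows from the level for which it was picked.

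The summed per-length level of the 4 UNC5 genes was 9.45 to 14.0 RPKM in wild-type and 5.38 to 7.13 RPKM in *Lmx1a-/-* embryos. Without *Unc5c* the sums were 4.24 to 5.29 RPKM and 3.84 to 5.33 RPKM and overlapped. *Unc5b* was thus the UNC5 gene with the highest mean share in *Lmx1a-/-* CH when merged exons gave the length. With the longest transcript as length, *Unc5c* (9646 in place of 19135 bases) held 73.5% of the sum in wild-type and 43.7% in *Lmx1a-/-* CH and had the highest mean share in both.

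**Figure D3:**
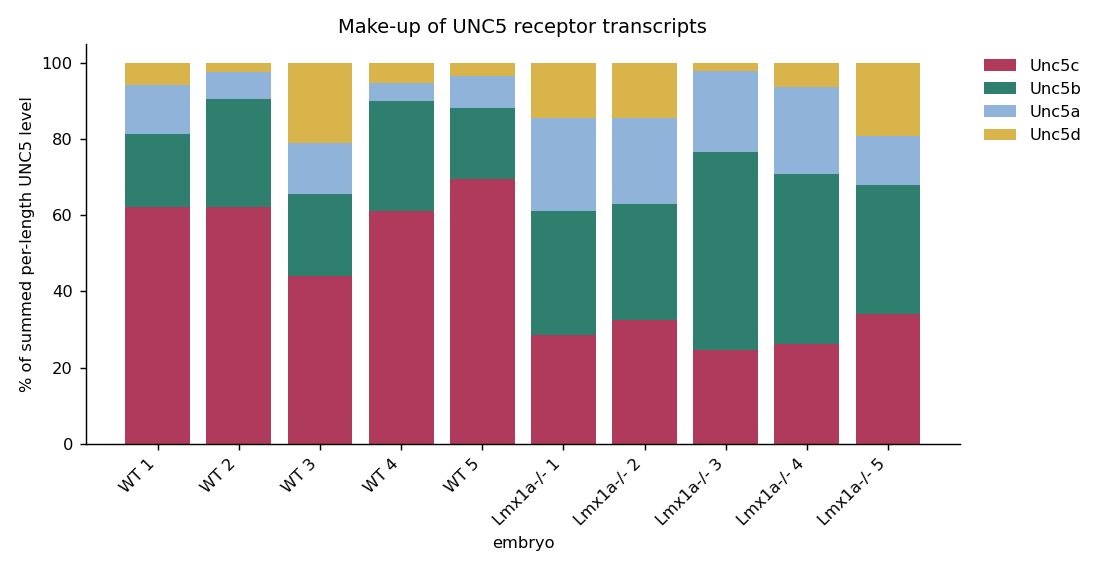
Share of *Unc5a*, *Unc5b*, *Unc5c* and *Unc5d* in the summed per-length level of UNC5 receptor transcripts, as stacked bars that add up to 100% for each embryo. *Unc5c* takes 44.1% to 69.6% in wild-type (WT) embryos and 24.5% to 34.1% in *Lmx1a-/-* embryos, and *Unc5d* takes its highest share, 21.1%, in wild-type embryo 3.

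*Dcc*, the receptor of netrin-1 that mediates attraction, was the most highly expressed of the 10 genes, and its level was nearly constant among wild-type embryos. Its level was 533, 532, 557, 503 and 575 CPM in wild-type embryos 1 to 5, against 534, 539, 343, 543 and 479 CPM in *Lmx1a-/-* embryos 1 to 5. The genotypes overlapped in 3 mutant embryos, and *Lmx1a-/-* embryos 3 and 5 were below all wild-type embryos. Between the genotypes *Dcc* had a log2 fold change of -0.15 (SE 0.11, 95% interval -0.38 to 0.09, edgeR FDR = 0.555), and without *Lmx1a-/-* embryo 3 it was -0.05. *Dcc* lies on chromosome 18 (71253634 to 72351069).

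*Neo1*, which encodes neogenin, had 255, 267, 223, 238 and 254 CPM in wild-type embryos 1 to 5 and 232, 239, 269, 297 and 303 CPM in *Lmx1a-/-* embryos 1 to 5. Mutant embryos 3, 4 and 5 were above all wild-type embryos. *Neo1* had a log2 fold change of 0.12 (SE 0.09, 95% interval -0.07 to 0.30, edgeR FDR = 0.557). The intervals of *Dcc* and *Neo1* were the narrowest of the 9 genes tested. *Neo1* lies on chromosome 9 (58874687 to 59036441).

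Relative to *Dcc* in the same library, the per-length level of *Unc5c* was 9.86% to 22.3% in wild-type and 3.80% to 6.67% in *Lmx1a-/-* embryos. Both numbers use merged exons as length, and the lowest wild-type ratio was again that of embryo 3.

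*Dscam*, a cell adhesion molecule of the immunoglobulin family that has been described as a netrin-1 receptor, had the lowest per-length level of the 10 genes in both genotypes. It had 1.61, 3.47, 5.18, 2.33 and 2.11 CPM in wild-type embryos 1 to 5 and 2.79, 5.76, 1.19, 1.11 and 6.37 CPM in *Lmx1a-/-* embryos 1 to 5, from 35 to 183 counts per library. The mutant embryos lay on both sides of the wild-type range, with 2 below it and 2 above it. *Dscam* had a log2 fold change of 0.21 (SE 0.50, 95% interval -0.86 to 1.29, edgeR FDR = 0.88). *Dscam* lies on chromosome 16 (96590840 to 97170752), and 1.98% and 1.12% of its exon bases are shared with 2 transcripts of the opposite strand. The strand setting of the counting is not given in the sources used here.

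Among the ligands, *Ntn1* had the largest difference between the means. *Ntn1*, which encodes the prototypical diffusible netrin, lies on chromosome 11 (68209364 to 68400823). Its level was 10.9, 6.31, 19.4, 13.1 and 12.2 CPM in wild-type embryos 1 to 5, against 10.97, 3.48, 6.47, 5.46 and 7.34 CPM in *Lmx1a-/-* embryos 1 to 5. *Lmx1a-/-* embryos 2 and 4 were below all wild-type embryos, and the other 3 overlapped with them. The means were 12.4 ± 4.69 and 6.74 ± 2.77 CPM, and the log2 fold change was -0.87 (SE 0.31, 95% interval -1.54 to -0.21), which did not pass the threshold (edgeR FDR = 0.173).

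Whether *Ntn1* passed depended on the setting. It passed with the Wald test of DESeq2 (log2 fold change -0.88, FDR = 0.0571) and, with edgeR, without *Lmx1a-/-* embryo 1 (-1.12, FDR = 0.09). Over the 18 alternatives that were not the removal of 1 embryo, its log2 fold change ranged from -1.21 to -0.57 and its FDR from 0.0571 to 0.774. Wild-type embryo 3 had the highest *Ntn1* level, and without it the log2 fold change was -0.65. Among wild-type embryos it also had the highest sums of meningeal and mesenchymal, neuron and cortical neuroepithelium markers. Among *Lmx1a-/-* embryos, embryo 1 had the highest *Ntn1* level and embryo 3 the highest sum of meningeal and mesenchymal markers. The part of any of these cell types in the *Ntn1* level was not tested.

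*Ntn3* (chromosome 17, 24203848 to 24209531) was the lowest of the 3 ligands. It had 2.65, 3.97, 5.09, 4.36 and 2.36 CPM in wild-type embryos 1 to 5 and 2.39, 2.61, 3.65, 3.52 and 2.75 CPM in *Lmx1a-/-* embryos 1 to 5. All mutant values fell within the wild-type range. *Ntn3* had a log2 fold change of -0.30 (SE 0.26, 95% interval -0.87 to 0.26, edgeR FDR = 0.616), and 1.74% of its exon bases are shared with *Tbc1d24* on the same strand and 2.72% with a transcript of the opposite strand.

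*Ntn4*, whose protein is known as a component of basement membranes that binds laminins, lies on chromosome 10 (93640681 to 93747207). It had 12.9, 24.2, 17.8, 18.4 and 19.1 CPM in wild-type embryos 1 to 5 and 17.0, 14.0, 16.9, 18.1 and 20.9 CPM in *Lmx1a-/-* embryos 1 to 5. Here too the wild-type range enclosed all mutant values. The log2 fold change was -0.09 (SE 0.16, 95% interval -0.43 to 0.26, edgeR FDR = 0.841).

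**Figure D4:**
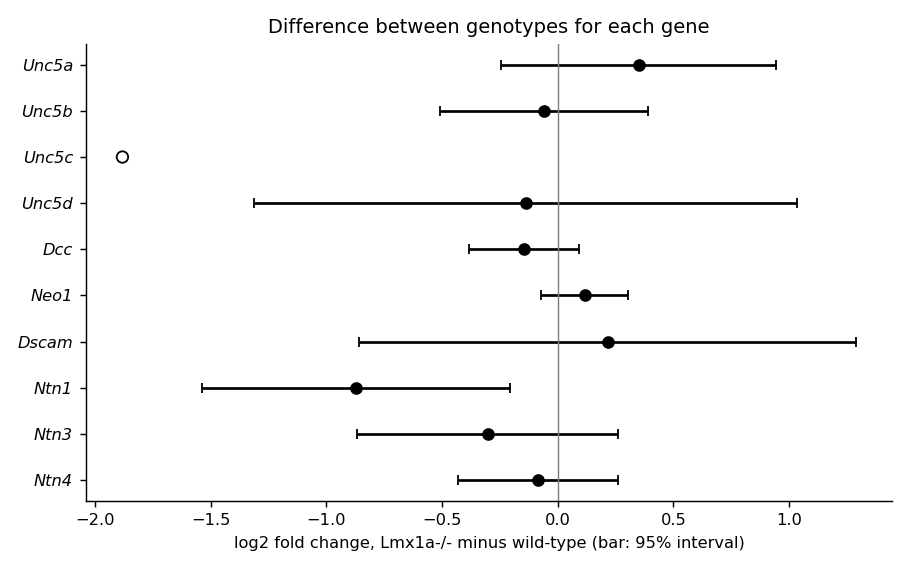
Log2 fold change of each gene, *Lmx1a-/-* minus wild-type, from edgeR's fit over all genes, with bars for 95% intervals that are not adjusted for the number of genes. *Unc5c* (open circle, -1.88) is drawn without an interval because its difference chose it. Of the other 9 genes, the interval of *Ntn1* (-1.54 to -0.21) is the one that does not include 0.

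In all, 1 of the 10 genes, *Unc5c*, was lower and 0 were higher at the threshold, compared with 2.29% lower, 1.72% higher and 4.02% in either direction of all genes tested. Since *Unc5c* was chosen by this contrast, nothing is read from that count. Of the 9 genes other than *Unc5c*, 1 (*Ntn1*) was lower and 0 were higher at an unadjusted p under 0.05 in edgeR's quasi-likelihood test. Of all genes tested, 8.7% were lower and 7.66% were higher at this p. At the FDR threshold, DESeq2 and edgeR's likelihood ratio test also called 0 of the 10 genes higher. The median log2 fold change was -0.09 over the 9 genes other than *Unc5c* and -0.005 over all genes tested, and 6 of the 9 genes and 50.6% of all genes had a value below 0. *Unc5c* was the 1 gene of the 10 whose genotypes did not overlap in this direction, as was seen for 2.27% of all genes tested, with 2.17% in the other direction and 4.44% in either. Its lack of overlap also follows from the values for which it was picked, and nothing is read from it.

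Ordered by per-length level, wild-type CH held most *Dcc* (41.0 ± 2.07 RPKM), then *Neo1* (28.4 ± 1.97), *Unc5c* (7.26 ± 2.01), *Ntn4* (4.94 ± 1.07), *Unc5b* (2.75 ± 0.60), *Ntn1* (1.97 ± 0.75), *Unc5a* (1.09 ± 0.41), *Unc5d* (0.82 ± 0.67), *Ntn3* (0.72 ± 0.23) and *Dscam* (0.33 ± 0.16). The ranges of *Dcc* and *Neo1*, of *Neo1* and *Unc5c* and of *Ntn4* and *Unc5b* did not overlap, and all other neighbors in this order overlapped. Per length, both DCC-type receptors were thus above each UNC5 receptor and netrin in every wild-type embryo. The overlap of *Unc5c* with *Ntn4* depended on the length used, since with the longest transcript they stood at 14.4 ± 3.98 and 5.07 ± 1.1 RPKM.

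In *Lmx1a-/-* CH, *Dcc* (37.03 ± 6.45 RPKM) and *Neo1* (30.7 ± 3.70) overlapped and again came first. They were followed by *Ntn4* (4.65 ± 0.66), *Unc5b* (2.63 ± 0.78) and *Unc5c* (1.97 ± 0.38), and *Unc5c* now overlapped with *Unc5b* above it and *Unc5a* (1.39 ± 0.29) below it. *Ntn1* (1.07 ± 0.44), *Unc5d* (0.75 ± 0.47), *Ntn3* (0.58 ± 0.11) and *Dscam* (0.39 ± 0.28) came last, each overlapping with its neighbor. The position of *Unc5c* after *Ntn4* and *Unc5b* depended on the length used, since with the longest transcript it stood at 3.91 ± 0.75 RPKM, between *Ntn4* (4.77 ± 0.68) and *Unc5b* (2.81 ± 0.84).

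Partners and signaling genes of the netrin pathway were taken from a list of 67 further genes, of which 65 could be tested and the others were too low. At the threshold, 4 genes fell in *Lmx1a-/-* CH (*Ablim1*, *Src*, *Rhoa* and *Maged1*) and 1 rose (*Lrrc4c*), compared with 2.29% lower and 1.72% higher of all genes tested. The median log2 fold change of the 65 genes was -0.01, and 33 were below 0 and 32 above. At an unadjusted p under 0.05, 13 were lower and 6 were higher, compared with 8.7% and 7.66% of all genes tested.

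*Ablim1*, which encodes an actin-binding LIM protein whose worm relative acts in UNC-5 and netrin guidance, fell most clearly. It had 49.7, 47.9, 40.5, 76.1 and 49.6 CPM in wild-type embryos 1 to 5 and 27.5, 25.4, 24.5, 21.3 and 26.5 CPM in *Lmx1a-/-* embryos 1 to 5, without overlap. The log2 fold change was -1.07 (SE 0.15, edgeR FDR = 0.00249), and *Ablim1* passed without any one of the 10 embryos (-1.16 to -0.91). The call was lost with the *Xist* level, choroid plexus, CR cell or cortical neuroepithelium markers as a covariate (edgeR FDR from 0.127 to 0.234), each of which followed the genotype. The log2 fold change was then -0.98, -1.05, -1.11 and -0.65, in that order.

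*Lrrc4c*, which encodes the receptor of netrin-G1 (NGL-1), rose from 97.0 ± 16.4 to 164 ± 30.7 CPM. The wild-type range of 71.7 to 114 CPM lay below the mutant range of 122 to 206 CPM. For *Lrrc4c* the log2 fold change was 0.76 (SE 0.14, edgeR FDR = 0.0136), and the gene passed without any one embryo (0.66 to 0.85). The call was lost with each covariate but neuron markers: the value was 0.37 with cortical neuroepithelium markers (edgeR FDR = 0.585), 0.57 with the *Xist* level (edgeR FDR = 0.548), 0.58 with choroid plexus markers (edgeR FDR = 0.443) and 0.78 with CR cell markers (edgeR FDR = 0.31). Among libraries with Y-linked transcripts it was 0.66 (edgeR FDR = 0.405). Its partner *Ntng1*, named here after its values were seen, averaged 12.4 ± 10.1 CPM in wild-type and 4.74 ± 1.99 CPM in mutant embryos, with overlap, and did not pass (log2 fold change -1.38, edgeR FDR = 0.165).

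*Src*, *Rhoa* and *Maged1* fell by small amounts. *Src*, a tyrosine kinase that phosphorylates DCC and UNC5 receptors, fell from 25.5 ± 3.06 to 18.3 ± 1.79 CPM without overlap (log2 fold change -0.48, SE 0.12, edgeR FDR = 0.053). *Rhoa*, a GTPase of the cytoskeleton, fell from 115 ± 7.36 to 92.2 ± 10.3 CPM (-0.32, SE 0.09, edgeR FDR = 0.077). *Maged1*, whose protein (NRAGE) binds UNC5A and takes part in its death signaling, fell from 929 ± 62.4 to 764 ± 57.1 CPM (-0.28, SE 0.07, edgeR FDR = 0.0623). *Maged1* lies on the X chromosome, and the part of the sex of the embryos in its difference was not tested.

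These 3 calls lay near the threshold, and each was lost without some of the embryos, while the log2 fold changes moved little (-0.53 to -0.42 for *Src*, -0.39 to -0.29 for *Rhoa* and -0.32 to -0.24 for *Maged1*). *Src* did not pass without wild-type embryo 2 or *Lmx1a-/-* embryo 4 (edgeR FDR = 0.119 and 0.118). *Maged1* did not pass without wild-type embryo 1, 2 or 5 or *Lmx1a-/-* embryo 4 or 5 (FDR from edgeR between 0.11 and 0.147). *Rhoa* passed in 2 of 10 such fits, without wild-type embryo 5 or *Lmx1a-/-* embryo 1, and its FDR from edgeR reached 0.166 without *Lmx1a-/-* embryo 4. All 3 calls were also lost with the *Xist* level, choroid plexus, CR cell, neuron or cortical neuroepithelium markers as a covariate. With the embryo number as a block the FDR from edgeR was 0.118 for *Src*, 0.12 for *Rhoa* and 0.133 for *Maged1*. In the 3 genes all or 4 of the 5 mutant embryos were below every wild-type embryo.

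By role, 0 of 10 other ligands, 1 of 9 other receptors and 1 of 19 kinases and adaptors passed with edgeR's quasi-likelihood test. The counts were 2 of 12 for GTPase and actin genes, 0 of 10 for receptor turnover and cleavage and 1 of 5 for death signaling. Of all genes tested, 4.02% passed in either direction, and nothing is read from counts this small. Of the ligands 4 and of the turnover genes 2 were lower at an unadjusted p under 0.05, and 0 of either were higher, compared with 8.7% lower and 7.66% higher of all genes tested. With DESeq2, *Flrt2* and *Ntng2* among the ligands and *Siah1b* and *Siah2* among the turnover genes passed as lower, and with the likelihood ratio test *Gpc3*, *Ntng1*, *Ntng2* and *Siah2* did. *Siah1b* and *Gpc3* lie on the X chromosome, and the part of sex in their levels was not tested. Of all genes tested, DESeq2 called 4.51% lower and the likelihood ratio test 3.72%.

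Some genes with the highest per-length level of their role did not pass. *Flrt3*, a ligand of UNC5 receptors, averaged 279 ± 73.8 CPM in wild-type and 244 ± 23.5 CPM in mutant embryos (log2 fold change -0.19, edgeR FDR = 0.574). *Ezr*, which encodes the actin linker ezrin, had 778 ± 222 and 657 ± 98.3 CPM (-0.24, edgeR FDR = 0.545). *Siah1a*, a ubiquitin ligase that targets DCC for degradation, had 47.1 ± 5.09 and 44.9 ± 3.83 CPM (-0.07, edgeR FDR = 0.767). *Lrrc4c* and *Maged1* had the highest levels among the receptors and the death signaling genes.

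**Figure D5:**
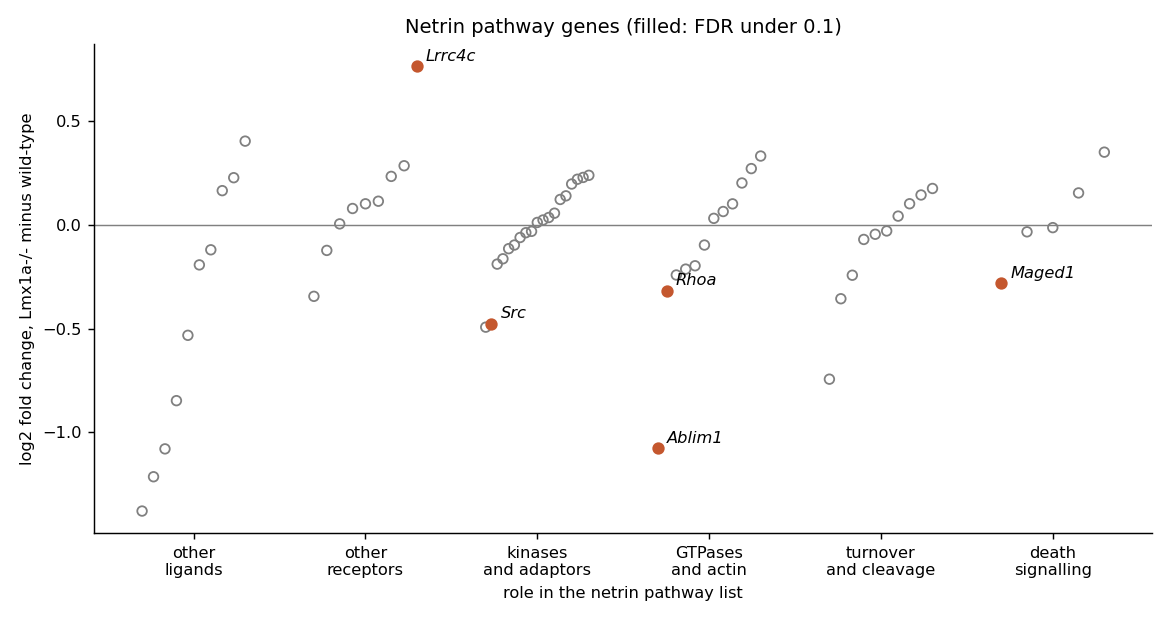
Log2 fold changes, *Lmx1a-/-* minus wild-type, of 65 tested genes of the netrin pathway list, grouped by role and sorted within a role. Filled and named points passed the threshold (4 lower and 1 higher), and open points did not. Values lie on both sides of 0 in every role, and the lowest open points are among the other ligands.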

How the data were processed

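The authors deposited raw read counts per gene, made with HTSeq 0.11.2 from reads that were trimmed (Trimmomatic) and aligned with STAR 2.7.1a to GRCm38, as named in the submitters' processing notes, which also list FastQC 0.11.8. The table has 52508 rows, of which 281 repeat another row exactly and were dropped. Genes that reached 10 counts in 3 or more libraries entered edgeR 4.0.16 (quasi-likelihood test, TMM scaling, trended dispersion, legacy = TRUE) in R 4.3.3, following the filter and threshold of the study's methods, with Benjamini-Hochberg adjustment over all genes. Alternatives were DESeq2 1.42.0, edgeR's likelihood ratio test and newer dispersion method, other scalings and filters, repeated rows kept, an embryo block, covariates (*Xist* or marker lists), an FDR of 0.05 and each embryo left out. SEs were derived from the F statistic as log2 fold change over √F. Lengths and positions are from GENCODE M21. On simulated data, 57% of genes changed by a log2 value of 1 and 86% of those changed by 2 were recovered, and 12.3% of 163 calls were false (21047 genes tested).

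Genes named are the 10 netrin genes, pathway genes past the threshold, the pathway gene with the highest per-length level in each role, the 5 profiles nearest to *Unc5c*, and *Lmx1a*. Not every gene covered by this rule is reported. These genes and all lists were chosen with earlier results of these data known. Embryos are separate samples, and depth allowed 35 counts or more for each netrin gene in every library.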

Additional observations from a re-analysis of the deposited data

Results flagged for a closer look

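Among 32 groups of 5 embryos that were examined for a single distant embryo, 2 held one, and chance alone gives about 1 in 20 such groups. *Unc5d* stood at 18.4 CPM in wild-type embryo 3, compared with 2.75 to 6.64 CPM in the other 4 wild-type embryos. *Ablim1* stood at 76.1 CPM in wild-type embryo 4, compared with 40.5 to 49.7 CPM in the other 4, and without this embryo its log2 fold change was -0.91.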

How the results depend on the processing

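The log2 fold change of *Unc5c* ranged from -2.12 to -1.45 over 18 alternatives and from -2.03 to -1.76 without 1 embryo. The count of lower netrin genes was 1, except for 2 with DESeq2, and 1 to 2 without 1 embryo (2 without *Lmx1a-/-* embryo 1, *Ntn1* being added); 0 were higher throughout. Lower pathway genes numbered 4 (3 to 5 in settings not named here, a difference within 1.5-fold), but 8 with the likelihood ratio test, 9 with DESeq2, 1 at an FDR of 0.05, 2 among libraries with Y-linked transcripts (1 wild-type embryo, assumed to vary like the mutants), 2 with the neuron covariate, and 0 with the *Xist*, choroid plexus, CR cell or cortical neuroepithelium covariate. They numbered 1 to 5 without 1 embryo (2 without wild-type embryo 1 or *Lmx1a-/-* embryo 5, and 1 without wild-type embryo 2 or *Lmx1a-/-* embryo 4). Higher pathway genes numbered 1, but 0 with these 4 covariates or among Y-linked libraries. The covariates correlate with genotype (r from -0.83 to 0.74). The calls over all genes moved too, from 497 lower to 805 with the likelihood ratio test, 976 with DESeq2 and 24 to 30 with these 4 covariates. With the longest transcript, the *Unc5c* share was 73.5% in wild-type and 43.7% in *Lmx1a-/-* CH.

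Values that turned sign were all of genes past no threshold. They were, with *Xist*, *Unc5a* -0.31, *Unc5b* 0.21, *Ntn3* 0.21 and *Ntn4* 0.50, and with choroid plexus markers, *Unc5b* 0.23, *Dscam* -0.19 and *Ntn4* 0.11. With CR cell markers *Unc5b* was 0.018 and *Dscam* -0.71, and among Y-linked libraries *Unc5a* was -0.22, *Unc5b* 0.15, *Unc5d* 0.046, *Ntn3* 0.17 and *Ntn4* 0.42. With neuron markers *Unc5b* was 0.16 and *Dscam* -0.53, and with cortical neuroepithelium markers *Unc5a* was -0.17, *Unc5b* 0.45, *Dscam* -0.36 and *Ntn4* 0.025. *Unc5d* was 0.17 without wild-type embryo 3 and *Lmx1a-/-* embryo 5 together. This alternative and the neuron and cortical covariates were chosen after seeing the data. Without 1 embryo, *Unc5b* ranged from -0.21 to 0.059, *Unc5d* from -0.47 to 0.50, *Dscam* from -0.14 to 0.52 and *Ntn4* from -0.19 to 0.023.

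Embryo numbers are shared between genotypes, but same-numbered embryos did not deviate together (correlations from -0.08 to 0.009). The main fit did not use the numbers as pairs. The paper compared mutants with wild-type littermates, but the sample labels name no litters, so the part of litter was not tested. With the number as a replicate block, 1 pathway gene was lower (*Ablim1*), 1 was higher, 1 netrin gene was lower, and *Unc5d* was 0.019. The spread between embryos limits *Unc5d* and *Dscam* most, whose intervals were the widest.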
